A study of Mus musculus with 16 samples.

Results

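Chromatin accessibility was examined around Klf1, Zfpm1, Epor and Nfe2, which encode 3 nuclear regulators of erythroid development and the erythropoietin receptor. A region was counted when it lay within 100 kb of the 5′ end of any of these 4 genes, and 165 of the 90549 regions of the series met this rule: 55 at Klf1, 41 at Zfpm1, 19 at Epor and 50 at Nfe2. The cells were mouse fetal liver hematopoietic progenitors immortalized with HoxB8 and grown in β-estradiol. They were infected for 3 d with retroviruses and sorted for the vector's GFP, and accessible DNA was mapped by ATAC-Seq, in which Tn5 transposase cuts and tags open chromatin. Each of 4 groups held 4 libraries: hi-77+/+ cells with empty vector, hi-77-/- cells with empty vector, hi-77-/- cells with GATA2 vector, and hi-77-/- cells with 9aa-Ins vector. hi-77-/- cells lack the Gata2 enhancer that lies 77 kb upstream of the gene, GATA2 is the HA-tagged unmodified factor, and 9aa-Ins is GATA2 with 9 amino acids inserted between its zinc fingers. The labels name no separate lines within a genotype, so the deletion and the difference between 2 immortalized lines cannot be told apart, and the p-values measure the spread between these libraries. The 3 comparisons within the hi-77-/- line share libraries, so their results are given side by side.

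Erythroid differentiation is driven by GATA factors that work with a small set of partners. Zfpm1 encodes FOG1, a coregulator that binds the amino-terminal zinc finger of GATA1 and GATA2. Klf1 encodes the erythroid Krüppel-like factor, which binds CACCC elements of globin and other erythroid genes. Nfe2 encodes the p45 subunit of NF-E2, which pairs with small Maf proteins and serves erythroid and megakaryocytic genes, and Epor encodes the receptor through which erythropoietin signals by JAK2 and STAT5. GATA factors recognize a hexamer in which GATA follows A or T and precedes A or G, on either strand.

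The measurement is a rank score. In each library the 49000 strongest peaks by −log10 p were ranked, the strongest peak received 100 and the weakest a value just above 0, and a region with no peak among them received 0. A score is a place in the library's own order and not an amount of signal. The deposited lists held 50195 to 112267 peaks per library, and their read depth is unknown. Regions are named by gene and by the distance of their midpoint from its 5′ end, positive downstream of that end. Over the 2 kb that lie 76 to 78 kb upstream of Gata2, peaks covered 1196 to 1414 bp in the hi-77+/+ libraries and 0 to 609 bp in the hi-77-/- libraries with empty vector. They covered 0 to 246 bp in GATA2 and 0 to 607 bp in 9aa-Ins libraries, and why peaks remained in some hi-77-/- libraries was not tested. Peaks covered 44.4 to 63.2% of the Gata2 coding exons in the GATA2 libraries, 89.9 to 99.6% in the 9aa-Ins libraries, 7.64 to 8.75% in hi-77-/- empty libraries and 0% in hi-77+/+ libraries. The GATA2 and 9aa-Ins vectors carried Gata2 cDNA, so vector DNA and the endogenous exons cannot be told apart there. Of 8 progenitor markers 7 had a promoter peak in every library, and none of 5 hepatocyte or 3 T cell markers had a promoter peak in any. Of 3 fibroblast markers Col1a1 had one in 15 libraries, of 3 endothelial markers Pecam1 had one in 14 and was higher in hi-77-/- than in hi-77+/+ empty libraries by 46.3 points of the score (limma adjusted p = 3.36e-05), and of 3 megakaryocyte markers Itga2b had one in all 16 and was higher by 18.6 points (limma adjusted p = 0.000374); their part in the results was not tested.

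The sequences at the summits of 6 selected regions are shown, each the 201 bases of the mm10 plus strand around the summit of the strongest peak. They were read from the RefSeq GRCm38.p6 genome, and capitals mark the GATA hexamers on either strand. The first 3 lie in introns of Zfpm1 and were higher with GATA2, the fourth lies past the 3′ end of Zfpm1 and was lower with GATA2, the fifth lies in an intron of the Nfe2 neighbor Cbx5, and the last covers the upstream flank of Epor.
Zfpm1 +27.3 kb (chr8:122309449-122309649): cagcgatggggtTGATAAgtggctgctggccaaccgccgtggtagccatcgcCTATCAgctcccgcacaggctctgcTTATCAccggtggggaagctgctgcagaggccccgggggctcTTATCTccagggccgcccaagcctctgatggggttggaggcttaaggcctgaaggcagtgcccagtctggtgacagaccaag
Zfpm1 +14.5 kb (chr8:122296602-122296802): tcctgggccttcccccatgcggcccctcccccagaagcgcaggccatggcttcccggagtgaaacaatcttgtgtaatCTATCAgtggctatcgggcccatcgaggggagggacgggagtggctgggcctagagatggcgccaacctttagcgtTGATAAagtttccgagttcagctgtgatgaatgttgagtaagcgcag
Zfpm1 +40.8 kb (chr8:122322840-122323040): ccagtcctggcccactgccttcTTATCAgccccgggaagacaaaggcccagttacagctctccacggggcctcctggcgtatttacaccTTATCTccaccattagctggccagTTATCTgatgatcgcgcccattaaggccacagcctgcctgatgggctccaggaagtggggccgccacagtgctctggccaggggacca
Zfpm1 +63.5 kb (chr8:122345698-122345898): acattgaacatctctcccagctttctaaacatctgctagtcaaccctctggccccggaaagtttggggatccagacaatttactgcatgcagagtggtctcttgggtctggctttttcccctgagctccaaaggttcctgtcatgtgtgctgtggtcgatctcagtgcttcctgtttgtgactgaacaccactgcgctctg
Nfe2 +37.4 kb (chr15:103220892-103221092): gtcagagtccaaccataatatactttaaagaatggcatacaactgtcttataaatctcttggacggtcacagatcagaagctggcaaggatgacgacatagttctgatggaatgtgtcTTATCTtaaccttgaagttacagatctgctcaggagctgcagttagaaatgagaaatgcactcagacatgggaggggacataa
Epor -0.1 kb (chr9:21963534-21963734): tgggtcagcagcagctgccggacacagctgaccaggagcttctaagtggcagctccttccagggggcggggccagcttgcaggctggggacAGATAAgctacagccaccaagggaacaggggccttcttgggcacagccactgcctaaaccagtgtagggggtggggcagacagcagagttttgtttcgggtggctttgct
The Zfpm1 +27.3 kb window held 4 hexamers, +40.8 kb held 3 and +14.5 kb held 2. The Nfe2 +37.4 kb and Epor -0.1 kb windows held 1 each, and none was in the Zfpm1 +63.5 kb window. The selection does not represent the regions raised by GATA2 over empty vector. Zfpm1 +39.6 kb, Epor +0.8 and +26.6 kb and Klf1 -8.1 kb were also called higher, held 0 hexamers and are not shown. Epor -0.1 kb is shown but was not called against empty vector.

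GATA2 changed regions in all 4 windows, at rates over the 4 together near those of the genome: 5 were higher and 6 lower at Zfpm1, 2 and 3 at Klf1, 2 and 1 at Epor, and 1 and 3 at Nfe2. The 3 regions called with 9aa-Ins were all at Nfe2. Of the 165 regions, 111 had a peak in at least 4 libraries and were tested with limma on rank scores across all 57174 such regions, with Benjamini-Hochberg adjustment. With GATA2 against empty vector in hi-77-/- cells, 10 of the 111 were higher (9.01%, where 8.51% of all tested regions were) and 13 were lower (11.7%, where 12.4% were). With 9aa-Ins against empty vector, 2 were higher (1.8%, background 5.26%) and 1 was lower (0.901%, background 1.75%). With 9aa-Ins against GATA2, 10 were higher (9.01%, background 16%) and 8 were lower (7.21%, background 8.27%). In hi-77-/- against hi-77+/+ cells with empty vector, 16 were higher (14.4%, background 21.2%) and 31 were lower (27.9%, background 19.1%), of which 15 were at Klf1. The genome share is not a like background here. Klf1 and Zfpm1 hold 30 and 31 of the 111 tested regions and lie on chromosome 8. On that chromosome 9.18% of tested regions were higher and 44.4% lower between the empty groups. Some called regions reached the minimum of 4 libraries only with the group where they are high, so the filter selected for a difference. They are 3 of those higher with GATA2 (Zfpm1 +27.3, +39.6 and +40.8 kb, which are also 3 of the 8 lower with 9aa-Ins than with GATA2). They are also 3 of those lower in hi-77-/- than in hi-77+/+ cells (Klf1 +23.8 kb and Nfe2 -56.9 and -62.9 kb). Zfpm1 +39.6 and +40.8 kb also had peaks in some hi-77+/+ libraries. Values printed for these regions are a description with no p, and those of Nfe2 -62.9 kb are not given. The median difference over the 111 regions was 1.78 points with GATA2 and 0 points with 9aa-Ins. It was -4.63 points in hi-77-/- against hi-77+/+ cells with empty vector, beside 0 points over all tested regions in these 3 comparisons. Over the tested regions of chromosome 8 the median between the empty groups was -9.67 points.

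A stricter count took regions with a peak in 4 of 4 libraries of a group and 0 of 4 of the other. With GATA2 against empty vector, 4 of 165 regions appeared (1.73% of all 90549 regions did) and 3 disappeared (2.23%), all 7 at Zfpm1. With 9aa-Ins against empty vector none appeared (1.35%) and none disappeared (0.171%), while limma called the 3 regions at Nfe2. With 9aa-Ins against GATA2, 3 were present (2.97%) and 4 were absent (1.47%). Between the empty groups, 1 was present in hi-77-/- and absent in hi-77+/+ libraries (3.59%), and 4 were the reverse (2.11%).

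**Figure D1:**
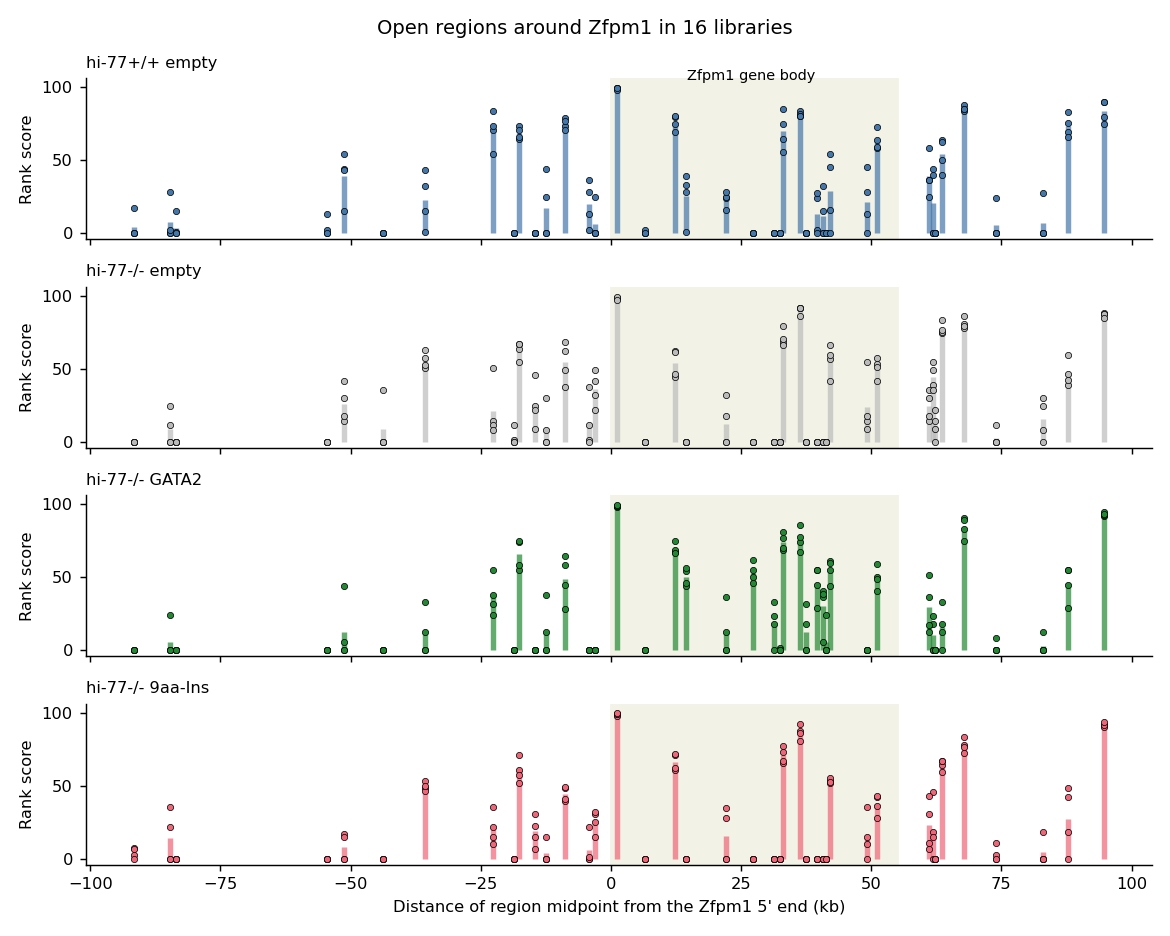
Rank score (vertical axis, 0 to 100) of each of the 41 regions within 100 kb of the Zfpm1 5′ end, against the distance of the region's midpoint in kb, with 1 panel per group. Bars are means of 4 libraries, points are libraries and the shaded span is the gene body; the region at +27.3 kb stands at 46.4 to 62.1 with GATA2 and at 0 in the other 12 libraries.

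Zfpm1 (ENSMUSG00000049577.15, chr8:122282141-122337251, plus strand) held differences inside its own body. The 5′ end itself was open in every library: the region over it (Zfpm1 +1.2 kb, chr8:122280166-122286499, first exon and surroundings) scored 97.2 to 99.8 in all 16 libraries, and no comparison was called. The region at Zfpm1 +27.3 kb (chr8:122309293-122309683) scored 54.8, 46.4, 49.9 and 62.1 in the GATA2 libraries and 0 in the 4 hi-77+/+, 4 hi-77-/- empty and 4 9aa-Ins libraries. The groups did not overlap. The difference of GATA2 from both empty vector and 9aa-Ins was 53.3 points. The deposited fold enrichment of these 4 peaks was 7.94, 8.59, 7.96 and 12.3. In bulk samples more cells of a type and more open chromatin per cell cannot be told apart. In the full lists, weaker peaks were also present there in 2 hi-77+/+ libraries and 1 9aa-Ins library, and in 0 hi-77-/- empty libraries. A region that has a peak in 4 libraries loses its test when any of them is left out, so no leave-out value exists for the GATA2 libraries here.

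The Zfpm1 +14.5 kb region (chr8:122296289-122297072) was open in hi-77+/+ and GATA2 libraries. Its scores were 39.5, 0.622, 33.3 and 28.1 in hi-77+/+ libraries, 0 in all 8 hi-77-/- libraries with empty vector or 9aa-Ins, and 43.8, 46.4, 54.4 and 56.5 with GATA2. Every GATA2 library was above every other library. The rise with GATA2 over empty vector was 50.3 ± 7.47 points (SE; limma adjusted p = 4.41e-05), and 9aa-Ins differed from GATA2 by the same amount (limma adjusted p = 4.82e-05). The difference of 9aa-Ins from empty vector was 0 ± 7.47 points. In hi-77-/- against hi-77+/+ empty libraries it was lower by 25.4 ± 7.47 points (limma adjusted p = 0.0105), and this call was lost when every library was given the same number of chromosome 8 peaks (-9.49 ± 6.18 points, limma adjusted p = 0.242). The full lists held peaks there in 4 hi-77+/+, 1 hi-77-/- empty, 4 GATA2 and 3 9aa-Ins libraries.

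A pair of regions farther into the gene, both nearer to the 5′ end of Trhr2 than to that of Zfpm1, followed. Zfpm1 +39.6 kb (chr8:122321567-122321978) scored 24.2, 27.8, 2.32 and 0 in hi-77+/+ libraries, 54.8, 55.3, 28.8 and 44.5 with GATA2, and 0 in the other 8. Zfpm1 +40.8 kb (chr8:122322607-122323247) scored 32.6, 0, 15.3 and 0 in hi-77+/+ libraries, 36.7, 40.6, 5.45 and 38.9 with GATA2, and 0 in the other 8. Both were present in 4 of 4 GATA2 libraries and 0 of 4 empty or 9aa-Ins libraries, and the hi-77+/+ libraries overlapped the GATA2 libraries at +40.8 kb. The differences from empty vector were 45.8 points at +39.6 kb and 30.4 points at +40.8 kb. The full lists held peaks in 1 and 0 hi-77-/- empty libraries and in 2 and 3 9aa-Ins libraries at these regions. At Zfpm1 +12.3 kb (chr8:122294199-122294683), open in all 16 libraries, GATA2 libraries stood at 66.6 to 75.0 and hi-77-/- empty libraries at 44.6 to 62.4, a rise of 15.5 ± 4.68 points (limma adjusted p = 0.0213) that lost its call when any of hi-77-/- empty replicate 1, hi-77-/- empty replicate 3 or GATA2 replicate 1 was left out (limma adjusted p up to 0.106 over all alternatives). The 9aa-Ins libraries scored 61.1 to 72.1 there, a difference from empty vector of 12.8 ± 4.68 points that was not called (limma adjusted p = 0.122). At Zfpm1 +31.3 and +37.4 kb, peaks were found in 3 and in 2 GATA2 libraries and in no other library, which was too few for the test, while the full lists held peaks in 3 and 1 hi-77+/+, 4 and 3 GATA2 and 0 other libraries.

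**Figure D2:**
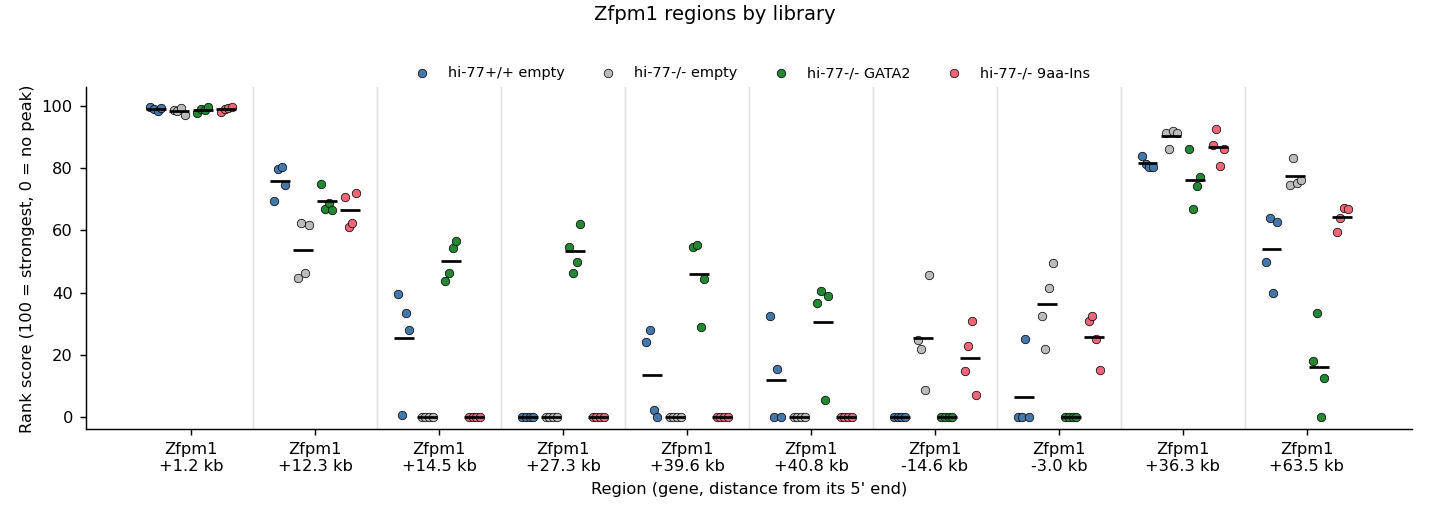
Rank score of 10 Zfpm1 regions in every library (points, 4 per group) with the group mean (line); the vertical axis runs from 0 (no peak) to 100 (strongest peak). GATA2 libraries are highest at +14.5, +27.3, +39.6 and +40.8 kb and lowest at -3.0, +36.3 and +63.5 kb by group mean, and the 9aa-Ins libraries are at 0 wherever the hi-77-/- empty libraries are at 0.

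GATA2 also lowered regions around Zfpm1. Zfpm1 +63.5 kb (chr8:122345116-122346187), past the 3′ end of Zfpm1 in an intron of the annotated read-through gene Gm20388 and nearest to Trhr2, scored 49.9, 64, 39.9 and 62.7 in hi-77+/+ libraries and 74.7, 83.4, 75.3 and 76.3 in hi-77-/- empty libraries. It scored 18.1, 33.4, 0 and 12.4 with GATA2, and 59.4, 64.1, 67.1 and 66.9 with 9aa-Ins. The GATA2 libraries were below all 12 others. They fell by 61.4 ± 6.83 points against empty vector (limma adjusted p = 2.14e-06), and 9aa-Ins exceeded GATA2 by 48.4 ± 6.83 points (limma adjusted p = 3.07e-05). Both calls were lost with peaks narrower than 1 kb or when a peak had to cover 50% of the region (limma adjusted p up to 0.259 and 0.213). Upstream of the gene, Zfpm1 -3.0 kb (chr8:122278923-122279319) had a peak in 1 hi-77+/+ library (25.2), in all hi-77-/- empty libraries (21.9 to 49.4), in no GATA2 library and in all 9aa-Ins libraries (15.1 to 32.3). It fell by 36.3 ± 7.52 points with GATA2 (limma adjusted p = 0.00126) and was higher by 30.1 ± 7.52 points in hi-77-/- than in hi-77+/+ empty libraries (limma adjusted p = 0.00344). The full lists held peaks there in 4 hi-77+/+, 4 hi-77-/- empty, 1 GATA2 and 4 9aa-Ins libraries, and the call between the empty groups was lost with them (limma adjusted p = 0.0548). Zfpm1 -14.6 kb (chr8:122267333-122267697) had a similar pattern, with peaks in the hi-77-/- empty (8.79 to 45.8) and 9aa-Ins libraries (6.95 to 30.7) and in 0 of the other 8, and it fell by 25.3 ± 6.96 points with GATA2 (limma adjusted p = 0.0122). The intronic Zfpm1 +36.3 kb region (chr8:122318001-122318799), open in all libraries, fell from 86.3 to 91.9 with empty vector to 67 to 86.1 with GATA2, a difference of -14 ± 3.08 points (limma adjusted p = 0.00215). Zfpm1 -22.6 kb (chr8:122259361-122259719) differed between the empty groups alone, at 54.2 to 83.4 in hi-77+/+ and 7.9 to 50.8 in hi-77-/- libraries (-49.2 ± 9.81 points, limma adjusted p = 0.000541). At Zfpm1 +49.2 kb peaks were found in all hi-77-/- empty and no GATA2 library, but limma did not call it (-23.7 ± 10.4 points, limma adjusted p = 0.12).

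The number of peaks in the Zfpm1 window hid these opposite changes. It was 31, 32, 28 and 28 with empty vector, 38, 30, 23 and 29 with GATA2 and 20, 26, 27 and 27 with 9aa-Ins, and no pair of groups was called. Of the other regions of the gene body, Zfpm1 +33.0 kb (55.6 to 85.0 in all libraries), +22.1 kb and +51.1 kb were called in no comparison, Zfpm1 +42.1 kb was called between the empty groups alone (higher by 27.2 ± 9.32 points in hi-77-/-, limma adjusted p = 0.0252, a call lost without hi-77+/+ replicates 2 or 4 or hi-77-/- empty replicates 2 or 4), and +6.5, +32.5 and +41.4 kb had a peak in 1 library each.

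The 3 genes listed as mast cell markers, of which Mcpt8 is a basophil gene, differed in their pattern over the groups. The promoter region of Cpa3, mast cell carboxypeptidase, had a peak in the 4 GATA2 libraries (mean score 48.8) and in no other, a description with no test for the same reason. That of Hdc, histidine decarboxylase, was higher with GATA2 than with empty vector by 58.2 points (limma adjusted p = 8.53e-05). Its mean score was 65.1 with GATA2 and 57.5 in hi-77+/+ libraries. That of Mcpt8, a basophil protease, was lower with GATA2 than with empty vector by 27.1 points (limma adjusted p = 0.0321). Its mean was 0 in hi-77+/+, 58.4 in hi-77-/- empty, 31.3 in GATA2 and 73.7 in 9aa-Ins libraries. With Mcpt8 counted, 2 to 3 of the 3 genes had a promoter peak in GATA2 libraries, 1 to 2 in the hi-77-/- empty and 9aa-Ins libraries and 1 in hi-77+/+ libraries. Mcpt8 had one in 4 hi-77-/- empty and 4 9aa-Ins libraries, Hdc in 1 and 3, and Cpa3 in 0 and 0. The part of these genes in the results at the members was not tested.

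The hexamers were counted in the summit windows of all regions as a description. Of the tested regions that GATA2 raised over empty vector, 59.2% held a hexamer, against 15.6% of those that it lowered and 21.5% of those not called. Of those that 9aa-Ins raised, 26% did. In the 4 windows, 5 of the 10 regions raised by GATA2 held a hexamer (Zfpm1 +12.3, +14.5, +27.3 and +40.8 kb and Nfe2 +37.4 kb) and 1 of the 13 lowered regions did. Over all 165 regions, 29 held a hexamer, 72 held CCNCNCCC, 17 held TGANTCA and 0 held CANNTG followed after 6 to 14 bases by a hexamer, on either strand; the shares over all 90549 regions were 26.5%, 27.3%, 11.1% and 2.04%.

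Epor (ENSMUSG00000006235.6, chr9:21958897-21963506, minus strand) carried 2 regions at its 5′ end. The nearer, Epor -0.1 kb (chr9:21963314-21963861), overlaps the first coding exon and the upstream flank. It scored 36.6, 33.3, 58.2 and 59.5 with GATA2, and 14.3, 42.1, 0 and 7.76 with empty vector in hi-77-/- cells. The hi-77+/+ libraries scored 13.4, 0, 15.1 and 3.5, and the 9aa-Ins libraries 0, 48.7, 0 and 0. The GATA2 group was highest on average (46.9 ± 13.9, SD, n = 4), yet single libraries of the empty and 9aa-Ins groups reached into its range. The difference of GATA2 from empty vector was 30.8 ± 11.1 points and was not called (limma adjusted p = 0.0543), and 9aa-Ins differed from GATA2 by -34.7 ± 11.1 points (limma adjusted p = 0.0263), a call lost when any of 5 libraries was left out (GATA2 replicates 3 and 4, 9aa-Ins replicates 1, 3 and 4). In the full lists all 16 libraries had a peak in this region.

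The second region, Epor +0.8 kb (chr9:21962429-21962907), overlaps an untranslated exon annotated for Epor and was open in all 16 libraries. It scored 75.2, 70.4, 80.3 and 76.6 in hi-77+/+ libraries, 49.2, 68.4, 54.6 and 57.6 in hi-77-/- empty libraries, 76.7, 72.6, 75.8 and 70.2 with GATA2 and 45.5, 46.0, 52.0 and 50.1 with 9aa-Ins. The hi-77+/+ and GATA2 libraries overlapped and lay above the hi-77-/- empty and 9aa-Ins libraries without overlap. The hi-77-/- empty libraries were lower than the hi-77+/+ libraries by 18.2 ± 4.33 points (limma adjusted p = 0.00233). GATA2 was higher than empty vector by 16.4 ± 4.33 points (limma adjusted p = 0.009), and 9aa-Ins was lower than GATA2 by 25.4 ± 4.33 points (limma adjusted p = 0.000183). The difference of 9aa-Ins from empty vector, -9.05 ± 4.33 points, was not called (limma adjusted p = 0.284). Both GATA2 calls at this region were lost with all deposited peaks or when a peak had to cover 50% of the region (limma adjusted p up to 0.0953 against empty vector and 0.121 against 9aa-Ins). Epor +26.6 kb (chr9:21936663-21937239), at the 5′ end of Plppr2, scored 85.0 to 94.0 in hi-77+/+, 53.3 to 68.4 in hi-77-/- empty, 75.7 to 78.5 with GATA2 and 60.7 to 69.7 with 9aa-Ins. GATA2 raised it by 15.9 ± 3.36 points (limma adjusted p = 0.00151). Epor -91.3 kb, nearest to Elavl3, fell by 29.4 ± 8.47 points with GATA2 (limma adjusted p = 0.0165), a call lost without hi-77-/- empty replicate 2, GATA2 replicate 2 or GATA2 replicate 3. Epor +61.9 kb was called between the empty groups alone, higher by 28.2 ± 7.97 points in hi-77-/- (limma adjusted p = 0.00825). So was Epor +12.9 kb, higher by 17.9 ± 6.38 points (limma adjusted p = 0.0313), which lost its call without any of hi-77+/+ replicates 1, 2 and 3 or hi-77-/- empty replicates 1 and 3.

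**Figure D3:**
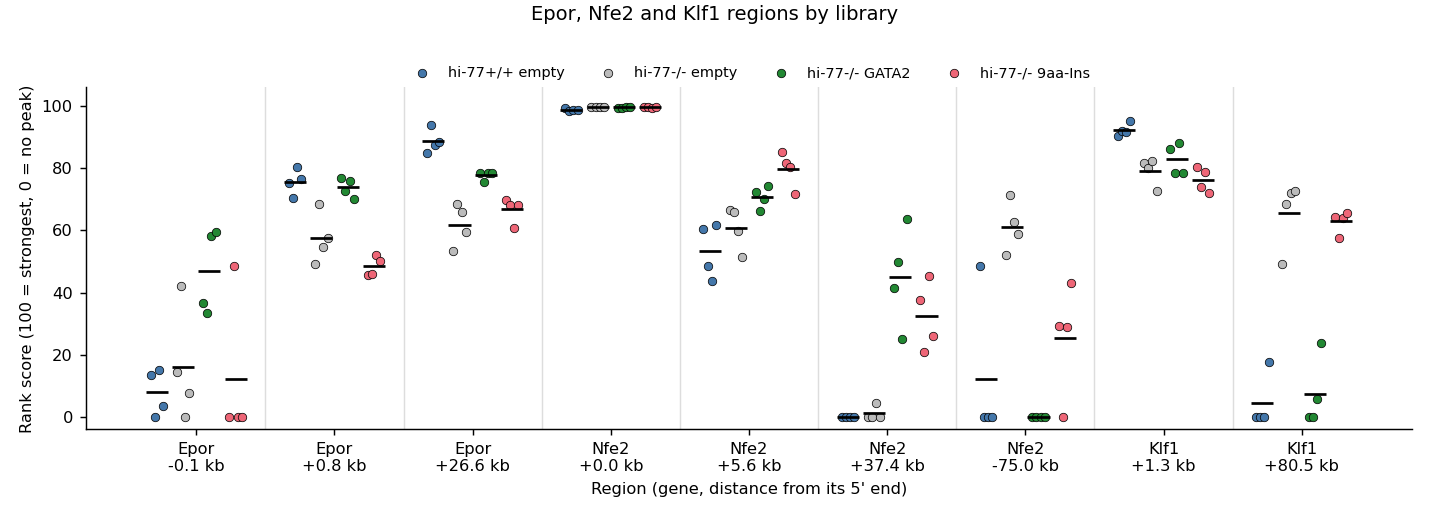
Rank score of 3 Epor, 4 Nfe2 and 2 Klf1 regions in every library (points, 4 per group) with the group mean (line); the vertical axis runs from 0 (no peak) to 100. At Epor +0.8 kb the GATA2 libraries (70.2 to 76.7) stand above the empty (49.2 to 68.4) and 9aa-Ins libraries (45.5 to 52.0) of the hi-77-/- line, and at Nfe2 +37.4 kb both the GATA2 and 9aa-Ins libraries have peaks.

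Nfe2 (ENSMUSG00000058794.12, chr15:103248212-103258403, minus strand) was, like Zfpm1, fully open at its 5′ end: the region over it (Nfe2 +0.0 kb, chr15:103257712-103259051) scored 98.5 to 99.8 in all 16 libraries and was called in no comparison. All 3 regions that 9aa-Ins changed against empty vector lay in this window. Nfe2 +37.4 kb (chr15:103220808-103221192), downstream of Nfe2 in an intron of the heterochromatin protein gene Cbx5, scored 0 in the 4 hi-77+/+ libraries and 0, 0, 4.36 and 0 in the hi-77-/- empty libraries. It scored 41.6, 49.7, 25.1 and 63.7 with GATA2 and 37.6, 20.8, 45.4 and 26.1 with 9aa-Ins. Both vectors stood above every empty library, and they overlapped each other. The rise was 43.9 ± 7.77 points with GATA2 (limma adjusted p = 0.000288) and 31.4 ± 7.77 points with 9aa-Ins (limma adjusted p = 0.015), and the difference between them was -12.5 ± 7.77 points (limma adjusted p = 0.285). The 9aa-Ins call was lost without 9aa-Ins replicate 3 and the GATA2 call with all deposited peaks (limma adjusted p = 0.0563), where weaker peaks were present in 2 hi-77+/+ and 3 hi-77-/- empty libraries.

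Nfe2 +5.6 kb (chr15:103252387-103253249), inside the gene over an untranslated exon, scored 43.8 to 61.6 in hi-77+/+, 51.4 to 66.5 in hi-77-/- empty, 66.2 to 74.2 with GATA2 and 71.7 to 85.1 with 9aa-Ins. The rise with 9aa-Ins was 18.7 ± 4.73 points (limma adjusted p = 0.0173), and that with GATA2, 9.78 ± 4.73 points, was not called (limma adjusted p = 0.167). The 9aa-Ins call was lost without hi-77-/- empty replicate 4 or 9aa-Ins replicates 1, 2 or 3, and 9aa-Ins and GATA2 differed by 8.96 ± 4.73 points, which was not called either (limma adjusted p = 0.197). Nfe2 -75.0 kb (chr15:103333167-103333597), over a coding exon of Zfp385a, was lower with both vectors. It scored 52.0, 71.4, 62.6 and 58.9 with empty vector, 0.11, 0, 0 and 0 with GATA2, 29.3, 0, 28.8 and 43.2 with 9aa-Ins, and 48.4, 0, 0 and 0 in hi-77+/+ libraries. It fell by 61.2 ± 10.4 points with GATA2 (limma adjusted p = 0.000204) and by 35.9 ± 10.4 points with 9aa-Ins (limma adjusted p = 0.0412), the latter a call that 7 of 16 leave-out fits lost (without any library of the hi-77-/- empty group or 9aa-Ins replicates 1, 2 or 3). The difference between the vectors, 25.3 ± 10.4 points, was not called (limma adjusted p = 0.0882).

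Nfe2 -52.4 kb (chr15:103310290-103311217), at the 5′ end of Gpr84, a receptor gene for medium-chain fatty acids, separated GATA2 from 9aa-Ins. It scored 34.0 to 67.8 with GATA2 and 84.8 to 90.0 with 9aa-Ins, a difference of 31.7 ± 6.07 points (limma adjusted p = 0.000589), and 71.4 to 75.7 with empty vector. The fall with GATA2 against empty vector (17.8 ± 6.07 points, limma adjusted p = 0.0423) was lost in 10 of 16 leave-out fits, those without any hi-77-/- empty or 9aa-Ins library or GATA2 replicates 1 or 3. In the body of the gene, Nfe2 +9.7, +7.8 and +3.2 kb were lower in hi-77-/- than in hi-77+/+ empty libraries by 28.5, 10.8 and 15.6 points (limma adjusted p = 0.00445, 0.0459 and 0.00507), and none differed between vectors. The call at +7.8 kb was lost in 14 of 28 alternatives, among them those without hi-77+/+ replicates 2, 3 or 4, hi-77-/- empty replicates 2 or 3 or GATA2 replicate 2. Nfe2 +6.7 and +4.7 kb had peaks in 2 libraries and 1 library. Between the lines, Nfe2 -56.9 kb (chr15:103315097-103315551) scored 37.3 to 47.7 in hi-77+/+ libraries and 0 in all 12 hi-77-/- libraries, while the full lists held weaker peaks there in 2 GATA2 and 4 9aa-Ins libraries. Nfe2 -89.0 and -94.7 kb, in Itga5, differed by -51.9 and -47.6 points between hi-77-/- and hi-77+/+ empty libraries (limma adjusted p = 0.000167 and 0.000933), and neither was called between vectors.

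Klf1 (ENSMUSG00000054191.8, chr8:84901928-84905291, plus strand) had no top-ranked peak over its 5′ end in any of the 16 libraries, and the full lists held such a peak in 1 hi-77+/+ library. Its nearest region, Klf1 +1.3 kb (chr8:84902601-84903792), overlaps a coding exon and was the only one of 55 in the window that was nearest to the Klf1 5′ end, since 15 other protein-coding genes start within 100 kb. It scored 90.4, 91.9, 91.5 and 95.1 in hi-77+/+ libraries, 81.7, 80.1, 82.3 and 72.8 in hi-77-/- empty libraries, 86.1, 78.6, 88.2 and 78.6 with GATA2 and 80.3, 74.1, 78.8 and 72.1 with 9aa-Ins. The hi-77+/+ libraries lay above all 12 hi-77-/- libraries, whose 3 groups overlapped. The hi-77-/- empty libraries were lower than the hi-77+/+ libraries by 13.0 ± 2.68 points (limma adjusted p = 0.00074). GATA2 and 9aa-Ins differed from empty vector by 3.65 ± 2.68 and -2.91 ± 2.68 points, and neither was called (limma adjusted p = 0.403 and 0.706).

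Chromosome 8, which carries Klf1 and Zfpm1, held fewer of the top-ranked peaks throughout the hi-77-/- line. It took 7.64 to 7.98% of the peaks in hi-77+/+ libraries and 5.06 to 5.89% in the 12 hi-77-/- libraries. Over its 3422 tested regions the median difference between the empty groups was -9.67 points, and 44.4% were lower and 9.18% higher. In the Klf1 window 15 of 30 tested regions (50%) were lower and 1 (3.33%) was higher. When the same number of chromosome 8 peaks was taken from every library and ranked within the chromosome, an alternative chosen after the data were seen, the median over the chromosome was 0, with 18.3% of its regions higher and 20.9% lower, the Klf1 window held 8 lower and 3 higher regions of 30, and the Zfpm1 window 1 lower and 9 higher of 31 instead of 5 and 6. On this scale Klf1 +1.3 kb was lower by 7.27 ± 2.69 points (limma adjusted p = 0.0386). With peaks narrower than 1 kb its difference was 12.4 points in the other direction and was not called (limma adjusted p = 0.74).

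The other regions named at Klf1 belonged to its neighbors. Klf1 +80.5 kb (chr8:84981789-84983013), intergenic and nearest to Junb, which encodes an AP-1 subunit, moved against the chromosome. It scored 0, 0, 0 and 17.7 in hi-77+/+ libraries, 49.3, 68.5, 72.0 and 72.8 in hi-77-/- empty libraries, 0, 0, 5.65 and 23.7 with GATA2 and 64.3, 57.6, 64.1 and 65.5 with 9aa-Ins. The hi-77+/+ and GATA2 libraries lay below every hi-77-/- empty and 9aa-Ins library. The hi-77-/- empty libraries were higher than the hi-77+/+ libraries by 61.2 ± 7.71 points (limma adjusted p = 4.44e-06, and 66.6 ± 7.47 points with equal chromosome 8 peak numbers). GATA2 differed from empty vector by -58.3 ± 7.71 points (limma adjusted p = 1.23e-05), and 9aa-Ins was higher than GATA2 by 55.5 ± 7.71 points (limma adjusted p = 2.4e-05). The difference of 9aa-Ins from empty vector was -2.81 ± 7.71 points and was not called (limma adjusted p = 0.974). With peaks narrower than 1 kb both GATA2 calls were lost (limma adjusted p up to 0.12 against empty vector and 0.857 against 9aa-Ins). Klf1 +55.0 kb, in an untranslated exon of Rnaseh2a, scored 55.8 to 67.1 in hi-77+/+ libraries and 0 in hi-77-/- empty libraries (limma adjusted p = 3.58e-06), and Klf1 +23.8 kb, in Mast1, scored 13.8 to 33.5 and 0. The full lists held weaker peaks at +55.0 kb in all 4 hi-77-/- empty libraries and at +23.8 kb in none of them. Klf1 -86.2, -8.1 and +96.2 kb, open in all libraries, were lower in hi-77-/- empty libraries by 21.0, 10.3 and 24.6 points (limma adjusted p = 0.000303, 2.61e-05 and 0.000129). GATA2 was above empty vector at Klf1 -8.1 kb, in Gcdh, by 4.61 ± 1.51 points (limma adjusted p = 0.0337). That call was lost in 13 of 28 alternatives, among them those without hi-77-/- empty replicates 1 or 3 or GATA2 replicates 1 or 4. It was also lost with all deposited peaks, on the log10 rank scale and with equal numbers of peaks per chromosome. At Klf1 +51.1 kb peaks were present in 4 of 4 9aa-Ins (21.1 to 44.4) and 0 of 4 GATA2 libraries (limma adjusted p = 0.0141), a call lost without 9aa-Ins replicate 4.

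**Figure D4:**
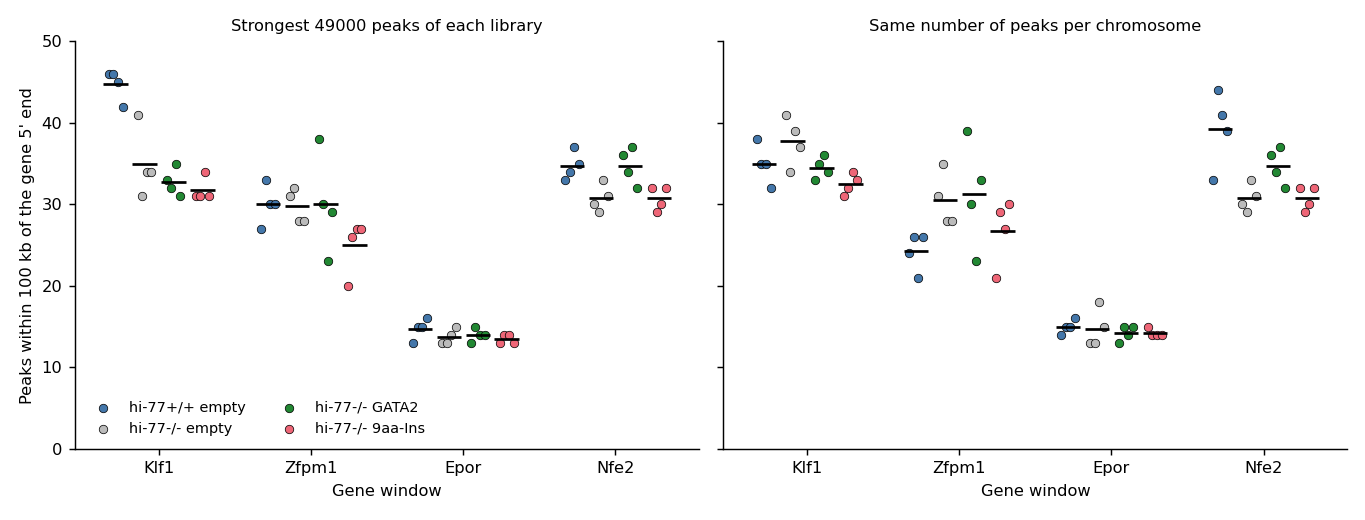
Number of peaks within 100 kb of each gene's 5′ end in every library (points) with the group mean (line), among the strongest 49000 peaks of each library (left) and with an equal number of peaks per chromosome (right). The Klf1 window falls from 42 to 46 peaks in hi-77+/+ libraries to 31 to 41 in hi-77-/- empty libraries on the left, and is at 32 to 38 and 34 to 41 on the right.

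Peak numbers per window were tested for 18211 protein-coding genes with limma on log2(peaks + 1), a scale that understates changes of small numbers. Between the empty groups 16.8% of genes had fewer and 10.9% more peaks in hi-77-/- libraries. Klf1 was the 1 member called: 46, 46, 45 and 42 peaks in hi-77+/+ and 41, 31, 34 and 34 in hi-77-/- empty libraries (log2 difference -0.35 ± 0.076, limma adjusted p = 0.00129). As a share of the chromosome's peaks the sign turned (0.16 ± 0.062, limma adjusted p = 0.0561). Zfpm1 had 27 to 33 and 28 to 32 peaks (log2 difference -0.01 ± 0.112, limma adjusted p = 0.98), and its share of the chromosome's peaks was higher (0.50 ± 0.104, limma adjusted p = 0.00108). Nfe2 had 33 to 37 and 29 to 33 peaks (log2 difference -0.17 ± 0.0702, limma adjusted p = 0.0716), and was called lower as a share of chromosome 15 peaks (-0.35 ± 0.0638, limma adjusted p = 0.000284). Epor had 13 to 16 and 13 to 15 peaks. With all deposited peaks all 4 members were called lower (log2 differences -0.55 to -0.76), while the full lists of the 2 groups also differed in length (76447 to 112267 peaks against 64258 to 74703). The share of all genes called lower in the full lists is not given here, so that count is not read as a result about the members. No member was called between vectors. The largest of those differences was that of Zfpm1 between 9aa-Ins and empty vector (-0.25 ± 0.112, limma adjusted p = 0.35).

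**Figure D5:**
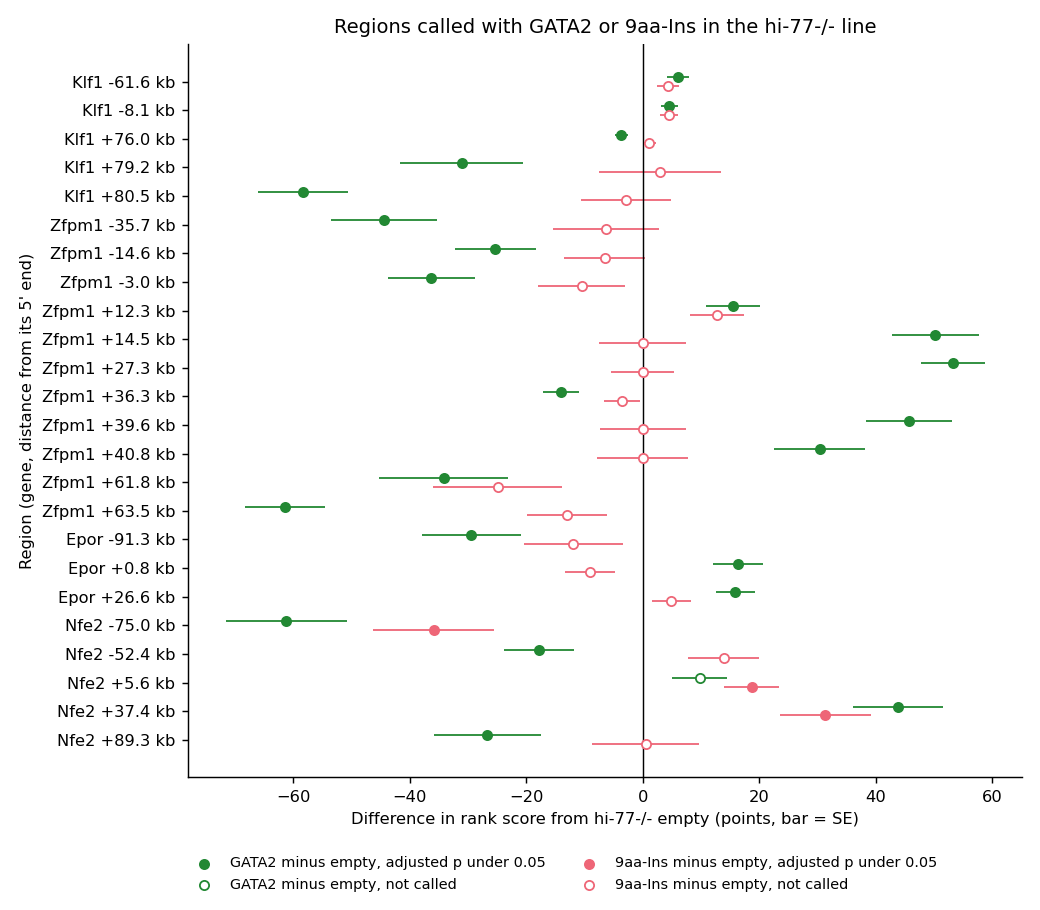
Difference in rank score from the hi-77-/- empty libraries (horizontal axis, points; bars are SE) for the 24 regions of the 4 windows called with GATA2 or with 9aa-Ins, 4 libraries a group; filled points have a limma adjusted p under 0.05, which at Zfpm1 +27.3, +39.6 and +40.8 kb is no test, since those regions passed the filter through the GATA2 group. GATA2 is called at 23 of them and 9aa-Ins at 3, and at Zfpm1 +14.5, +27.3, +39.6 and +40.8 kb the 9aa-Ins difference is 0.

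Promoter regions of other erythroid genes were compared in the same way. Of 18 transcription factors and cofactors 15 had a promoter region open in all 16 libraries, and GATA2 and 9aa-Ins each changed 0 of these 15 against empty vector. Gata1, Lmo2 and Sox6 had no top-ranked promoter peak in any library and were not tested. The paper reports Gata1 as activated by GATA2, so the count does not cover a factor known to respond. Of all 10172 promoter regions, GATA2 raised 4.45% and lowered 3.49%, and 9aa-Ins raised 1% and lowered 0.61%. With 15 genes, a count of 0 is near these shares. Against empty vector the vectors also changed 0 of 11 genes of erythropoietin signalling and 0 of 12 tested genes of heme synthesis and iron uptake. Between the lines, 15.6% of all promoter regions were higher and 18.1% lower in hi-77-/- empty libraries. Of the 15, 6 were higher and none was lower, among them Tal1, the bHLH partner of GATA factors (13.5 points, limma adjusted p = 0.000208), Myb (9.94 points, limma adjusted p = 5.82e-05) and Runx1 (15.9 points, limma adjusted p = 0.00334). The list's median difference was 2.95 points beside -0.227 points over all promoter regions. Of 11 genes of erythropoietin signalling, 2 were higher (Sh2b3 and Pim1) and 1 was lower (Erfe, the erythroid iron hormone, by 26.9 points, limma adjusted p = 0.0298) in hi-77-/- empty libraries, beside those 15.6% and 18.1%, with a median of -1.01 points. Cish, which encodes a feedback inhibitor of STAT5, was lower with 9aa-Ins than with GATA2 by 15.9 points (limma adjusted p = 0.0497). Of 12 tested genes of heme synthesis and iron uptake, 2 were higher (Urod and Slc25a37) and 3 lower (Cpox, Abcb10 and Ppox), beside the same background, with a median of -1.33 points. Among globin, membrane and blood group genes, Icam4, which encodes an adhesion molecule of the red cell, had a promoter region that was lower in hi-77-/- empty libraries by 44.9 points (limma adjusted p = 0.000212). That of Add2, which encodes an adducin of the membrane skeleton, had a peak in the 4 hi-77+/+ libraries (mean score 26.6) and in no other, given with no test.

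The promoters most like each member were sought among the 10172 tested promoter regions by Pearson's r of the score over the 16 libraries, a description in which libraries of a group are not independent. The profile of Zfpm1 +27.3 kb was most like those of Cpa3 (r = 0.999), Lct (r = 0.986) and Alpk3 (r = 0.971). Zfpm1 +27.3 kb and Cpa3 had peaks in the GATA2 libraries alone, so a high r between them was fixed by that pattern and shows no particular link. The profile of Epor +0.8 kb was most like those of Psip1 (r = 0.938), Rtn4rl1 (r = 0.93) and Zfp963 (r = 0.901), and that of Epor +26.6 kb like Zfp369 (r = 0.934). For Klf1 +1.3 kb the nearest 3 were all on chromosome 8 (Cklf, r = 0.914; Rtbdn, r = 0.907; Slc5a5, r = 0.906). For Nfe2 +0.0 kb and Zfpm1 +1.2 kb, whose scores span under 3 points, the nearest were Klf13 (r = 0.969) and Gm10521 (r = 0.783).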

How the data were processed

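ATAC-Seq was done on 4 groups of 4 libraries, and groups and replicate numbers were taken from the labels. Per the labels and the study's methods, the authors trimmed reads with Trim Galore 0.4.1, aligned them to mm10 with Bowtie2 2.2.5, removed duplicates with Picard 2.26.0, shifted reads by +4 and -5 bp for the Tn5 cut and called peaks per library with MACS2 without model building, with its nolambda option for the hi-77-/- groups; no such option is named for hi-77+/+ in the sources used here. The deposited peak lists give a fold enrichment (a linear ratio), −log10 p and −log10 q values, an integer display score and the summit's offset. Read counts were not used here, so depth is unknown.

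The 49000 peaks with the highest deposited −log10 p on chromosomes 1 to 19 and X were taken per library (ties by fold enrichment, then position), scored 100 to 0 by rank, and merged where they overlapped by at least 1 bp into 90549 regions. Nearly all peaks share their values with others: 4.91 to 18.6% of the 49000 lay in 1 tie at the cut, which position decided, so weak peaks on later chromosomes were left out in some libraries. Regions with a peak in at least 4 libraries were fitted with limma 3.58.1 in R 4.3.3 (trend and robust variances, all 4 groups), adjusted by Benjamini-Hochberg over 57174 regions. Groups at 0 in all libraries add no spread, so their SE rests on the other groups. The limma step was tested on simulated scores. Gene ends came from GENCODE M21, and sequences from RefSeq GRCm38.p6, the same build. Named regions were, per gene, those within 1 kb of the 5′ end, those in the gene body, the 6 with the smallest adjusted p under 0.05, and those present in 4 of 4 against 0 of 4 libraries. The members and lists were chosen with earlier results of these data known. No 2 libraries held identical scores (r = 0.892 to 0.952 within groups). Alternatives were the peak set, overlap, rank scale, window, pseudocount, filter, variance model, replicate block and leaving out each library. The counts of the erythroid marker and the globin and membrane lists are not reported here.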

Additional observations from a re-analysis of the deposited data

Results flagged for a closer look

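In 25 of the 167 groups of 4 libraries with any peak, the highest or lowest library lay far from the other 3. For normally distributed values about 5% of groups would be flagged. That share is not a like background here, since a peak in 1 library and none in the other 3 always sets the flag. In peak numbers the flagged libraries were 9aa-Ins replicate 3 at Klf1 (34 peaks) and 9aa-Ins replicate 1 at Zfpm1 (20 peaks).

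Among hi-77+/+ libraries, replicate 4 stood apart at Klf1 +80.5 kb (17.7), Epor +12.9 kb (54.6) and Nfe2 +6.7 kb (13.4), replicate 3 at Zfpm1 -3.0 kb (25.2) and Zfpm1 +6.5 kb (2.33), and replicate 1 at Nfe2 +4.7 kb (9.59) and Nfe2 -75.0 kb (48.4). Among hi-77-/- empty libraries, replicate 4 stood apart at Klf1 +96.2 kb (57.6), replicate 3 at Zfpm1 -22.6 kb (50.8), Nfe2 +37.4 kb (4.36) and Nfe2 +9.7 kb (4.36), replicate 2 at Zfpm1 +36.3 kb (86.3) and replicate 1 at Nfe2 +3.2 kb (47.7).

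Among GATA2 libraries, replicate 1 stood apart at Zfpm1 +32.5 kb (1.81) and Nfe2 -75.0 kb (0.11), replicate 2 at Zfpm1 +41.4 kb (24.3), Epor +26.6 kb (75.7) and Nfe2 +6.7 kb (20.8), and replicate 3 at Zfpm1 +40.8 kb (5.45). Among 9aa-Ins libraries, replicate 3 stood apart at Klf1 +23.8 kb (1.36) and Epor +26.6 kb (60.7), replicate 1 at Klf1 +55.0 kb (26.4) and replicate 2 at Epor -0.1 kb (48.7). In 14 of the 23 flagged scores the other 3 libraries were all at 0, so a peak in 1 library set the flag.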

How the results depend on the processing

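Each of 62 region calls was refitted under up to 28 alternatives, and 23 held in every one that gave a value. Of these, 6 were among the 8 calls at regions that passed the filter only through the higher group, which says nothing of their stability. Over all 62 calls 1538 values kept the call, 156 lost it and 3 turned in direction. The turned values were -18.4 points at Klf1 -8.1 kb (GATA2 against empty) and -13.6 points at Epor +12.9 kb (between the empty groups) when a peak had to cover 50% of a region, and 12.4 points at Klf1 +1.3 kb (between the empty groups) with peaks narrower than 1 kb. Under the replicate block 60 of 62 calls held, the exceptions being Nfe2 +7.8 kb between the empty groups and Nfe2 -75.0 kb with 9aa-Ins, and the Klf1 peak number kept its log2 difference of -0.35 (limma adjusted p = 0.00164); libraries with the same number deviated together with r of -0.0542 to 0.0912, so the numbers do not pair them.

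The number of tested regions changed with the setting: 111 in the main fit and on the log10 rank scale, 162 with all deposited peaks, 98 with 50% cover and 71 with the top 24500 peaks. The shares of all regions called under these alternatives are not given here. Called regions between the empty groups numbered 47, and 27 with 50% cover. With GATA2 against empty they numbered 23, and 12 with 50% cover or with the top 24500 peaks. With 9aa-Ins against empty they numbered 3, 11 with all deposited peaks and 5 on the log10 rank scale. With 9aa-Ins against GATA2 they numbered 18, 31 with all deposited peaks and 11 with the top 24500 peaks. Leaving out 1 library gave 39 to 51, 16 to 24, 0 to 5 and 14 to 20. The count of 0 came without 9aa-Ins replicate 3; it was 1 without hi-77-/- empty replicate 4 or 9aa-Ins replicates 1 or 2 and 5 without hi-77+/+ replicate 1.

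By peak number 1 gene was called between the empty groups, 4 with all deposited peaks and 2 with narrow peaks, as a share of the chromosome or without the filter. The shares of all genes called under these alternatives are not given here. Within 50 kb, 1 gene was called with GATA2 (Nfe2) and 1 with 9aa-Ins against GATA2 (Zfpm1), where narrow peaks also called 1. Leaving out 1 library gave 1 to 1 between the empty groups and 0 to 1 with 9aa-Ins against GATA2 (1 without GATA2 replicate 3). Taking equal numbers of peaks per chromosome, and keeping or leaving out all peaks tied at the cut, were chosen after seeing the data; they kept 56, 58 and 60 of 62 calls. With equal numbers the member called by peak number between the empty groups was not Klf1 (log2 difference 0.10, limma adjusted p = 0.306) but Nfe2 (-0.34, limma adjusted p = 0.00327). Read depth is unknown, so a score of 0 does not show closed chromatin.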
